A study of Homo sapiens with 2 samples.

Results

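The laminin chains were 9 listed genes, LAMA1 to LAMA5, LAMB1 to LAMB3 and LAMC1, each represented by the brightest transcript cluster that carries its symbol alone. A transcript cluster is the array's unit for a gene. Such a cluster was found for 8 of the 9 genes, 1 cluster each, among 18417 genes in all. LAMA3 was not analysed here, because no cluster carried its symbol alone. Expression was measured on 2 Affymetrix Human Gene 1.0 ST arrays in ACHN cells, a human kidney carcinoma line called clear cell in the labels. The cells of 1 array had been transfected with an shRNA against Kindlin-2 and those of the other with a control shRNA. Both cultures grew in minimum essential medium with 10% FBS and 400 µg/ml of G418, a drug that selects transfected cells. The labels do not say whether a culture was 1 clone or a pool, and they give no time after transfection. Each group held 1 array (n = 1), so every value below is a single measurement, no test was possible, and every difference describes these 2 arrays. Differences are given on the log2 scale of the deposited table, Kindlin-2 shRNA minus control. Genes whose brighter value lay under 6.52, the middle of the table's values, were set aside as dim, and 11822 genes were kept, 6 laminin chains among them. A difference of at least 1.5-fold was counted as a rule of size.

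Laminins are the main self-assembling glycoproteins of basement membranes. Each laminin is a cross-shaped trimer of 1 alpha, 1 beta and 1 gamma chain, and its name gives the numbers of its chains, so laminin-511 joins alpha-5, beta-1 and gamma-1. The short arms polymerise into a sheet, nidogen ties the gamma-1 chain to collagen IV, and the globular end of the alpha chain binds integrins and dystroglycan on the cell. In the kidney, laminins with alpha-1 or alpha-5 underlie the tubules, and laminin-521 is the laminin of the mature glomerular basement membrane. Kindlin-2, encoded by FERMT2, binds the tails of beta integrins, the class of receptor through which cells hold on to laminin. FERMT2 was 8.26 in the Kindlin-2 shRNA array and 9.37 in the control array, 2.16-fold lower in the direction its label gives.

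Among the laminin chains the only difference of at least 1.5-fold was that of LAMC1, which encodes the gamma-1 chain and was higher in the Kindlin-2 shRNA array. No chain was at least 1.5-fold lower and none differed by 2-fold in either direction. Of the 6 chains kept, 3 were above 0 and 3 below, though LAMB1 crossed 0 when the median difference of all clusters was subtracted. They had differences from -0.32 to 0.65 and a median of 0.01, beside a median of -0.02 over all genes kept. Across all genes kept, the share past 1.5-fold was 5.10% upward and 5.23% downward, together 10.3%. The share past 2-fold was 1.41% upward and 1.26% downward, together 2.67%. A count of 1 among 6 chains is near that background and is not a result about the chains as a group. The values of the 2 arrays can be compared for a gene but not between genes, since clusters differ in their probes.

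**Figure D1:**
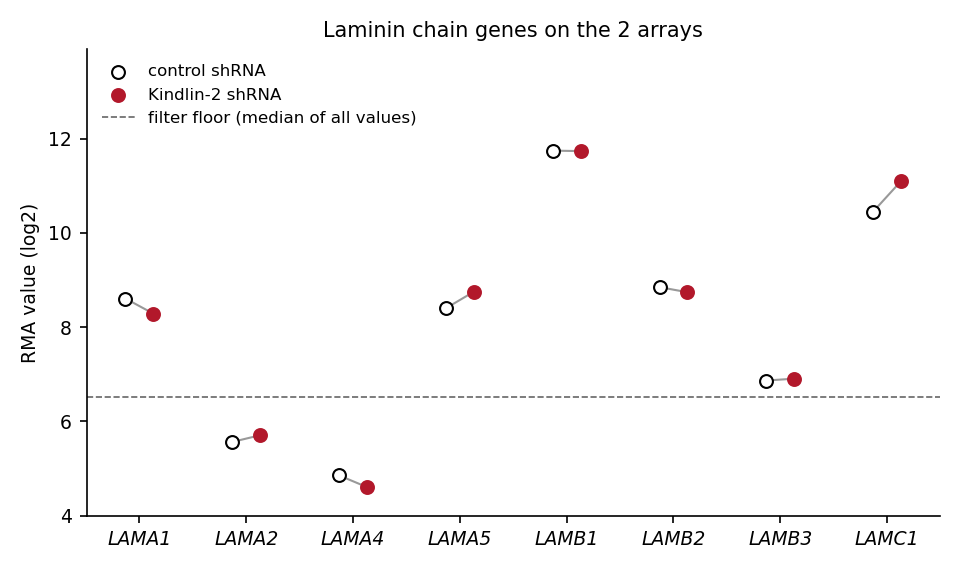
RMA values (vertical axis, log2) of the 8 laminin chain genes with a cluster (horizontal axis); open points are the control shRNA array, filled points the Kindlin-2 shRNA array, n = 1 each, and the dashed line is the filter floor of 6.52. LAMC1 differs most, 11.10 against 10.45, and both values of LAMA2 and of LAMA4 lie under the floor.

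LAMC1 (7908041, the number of its cluster) was 11.10 in the Kindlin-2 shRNA array and 10.45 in the control array. The difference of 0.65 was 1.56-fold, just past the 1.5-fold rule. Of the 11822 genes kept, 493 had a larger increase, and 8.16% had a larger difference in either direction. In the brightest of 10 equal bins of genes, where LAMC1 lies, the SD of the difference over genes was 0.35 and 8.45% of genes differed by at least 1.5-fold. The gamma-1 chain is part of most laminins outside stratified epithelia, so it is shared by trimers with different alpha and beta chains. The gamma-3 chain gene LAMC3 was 7.26 in the Kindlin-2 shRNA array and 7.28 in the control array, a difference of -0.03.

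The beta chains were close to equal on the 2 arrays. LAMB1 (8142194), encoding the beta-1 chain that pairs with gamma-1 in most tissues, was 11.74 in the Kindlin-2 shRNA array and 11.75 in the control array, a difference of -0.01. The SD of the difference over genes as bright was 0.35, so LAMB1 was near the centre of that spread. LAMB2 (8087337) encodes beta-2, the beta chain of the glomerular basement membrane and of the neuromuscular junction. It was 8.74 in the Kindlin-2 shRNA array and 8.85 in the control array, a difference of -0.11. LAMB3 (7924029), the beta chain of laminin-332 and thus of hemidesmosomes, was 6.91 and 6.87 in the same order, a difference of 0.04 close to the filter floor. LAMB4, the remaining beta chain gene, did not pass the filter and was 5.16 in the Kindlin-2 shRNA array and 5.12 in the control array.

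The alpha chains determine which receptors a laminin can bind, and the 2 that passed the filter differed in opposite directions without reaching 1.5-fold. LAMA5 (8067409), the broadly expressed alpha chain of adult epithelia, was 8.75 in the Kindlin-2 shRNA array and 8.40 in the control array, 1.27-fold higher. LAMA1 (8022176), the alpha chain of the embryonic laminin-111 that persists in kidney tubules, was 8.29 in the Kindlin-2 shRNA array and 8.61 in the control array, 1.25-fold lower. The 2 differences, 0.35 and -0.32, lay 0.67 apart on the log2 scale. The SD of the difference over genes of similar brightness was 0.42 for LAMA5 and 0.44 for LAMA1, and 25.9% and 29.2% of all genes kept had a larger difference in either direction. LAMA2, the alpha chain of muscle and peripheral nerve, did not pass the filter, with 5.71 in the Kindlin-2 shRNA array and 5.56 in the control array. LAMA4, the alpha chain of vessels and other mesenchymal tissues, did not pass either, with 4.61 and 4.85 in the same order. The table carries no detection calls, so these low values could not be called absent or present.

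**Figure D2:**
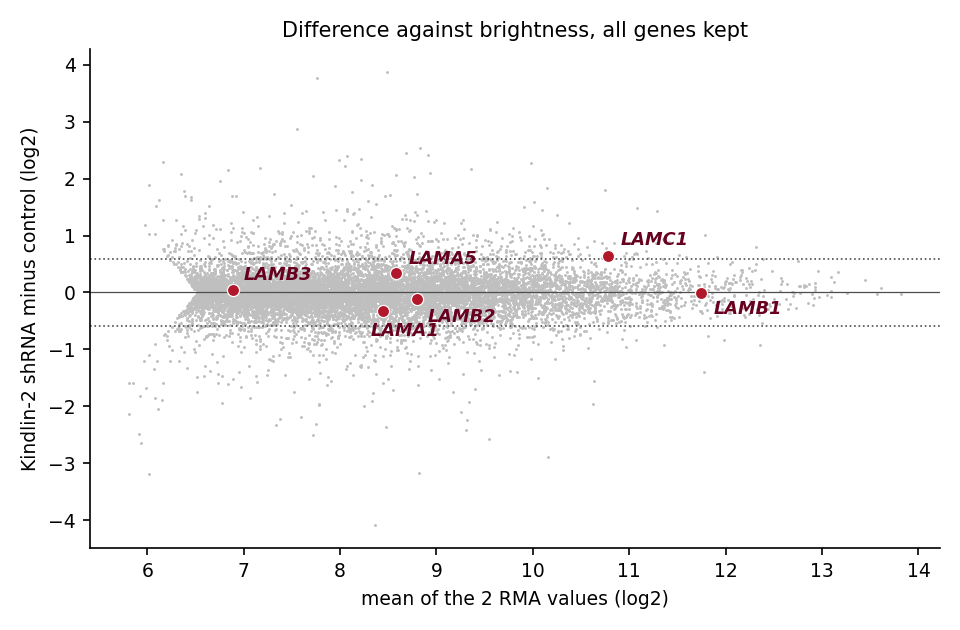
Difference between the arrays (vertical axis, Kindlin-2 shRNA minus control, log2) against the mean of the 2 values (horizontal axis, log2) for the 11822 genes kept, with the 6 laminin chains as large labelled points and dotted lines at 1.5-fold. LAMC1 at 0.65 is the only laminin chain outside the dotted lines, while LAMA5 at 0.35 and LAMA1 at -0.32 lie on opposite sides of 0.

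Read by trimer, the chains of a laminin had unequal differences, beside an SD of the difference of 0.40 over all genes kept. How often 3 other genes lie as far apart was not tested. Of the 11 trimers considered, 4 had all 3 chains kept, and all 4 contain gamma-1. For laminin-111 the differences were -0.32 for alpha-1, -0.01 for beta-1 and 0.65 for gamma-1, so alpha and gamma lay 0.97 apart. For laminin-511 they were 0.35 for alpha-5, -0.01 for beta-1 and 0.65 for gamma-1, and the largest gap was 0.66. With the median of the 50 nearest genes subtracted from each, these became 0.21, 0.22 and 0.52, and the gap 0.31. Replacing beta-1 by beta-2, as in laminin-121 and laminin-521, changes the beta difference to -0.11 and makes the gap 0.97 and 0.75. LAMC1 was thus higher than each of its partners in this comparison of differences, by 0.30 against LAMA5 and by 0.75 against LAMB2. These are transcript values, and assembled trimers were not measured.

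The promoters of LAMC1 and LAMB1 are shown because these chains share a trimer while 1 passed the 1.5-fold rule and the other did not. The stretches are the 250 bases before the gene's start in the RefSeq annotation of GRCh38.p14, printed 5′ to 3′ on the gene's strand. Capitals mark GC boxes, the letters GGGCGG on either strand, some of which overlap. LAMC1 lies on the plus strand at chr1:183023170-183023419 and LAMB1 on the minus strand at chr7:108003162-108003411.
LAMC1: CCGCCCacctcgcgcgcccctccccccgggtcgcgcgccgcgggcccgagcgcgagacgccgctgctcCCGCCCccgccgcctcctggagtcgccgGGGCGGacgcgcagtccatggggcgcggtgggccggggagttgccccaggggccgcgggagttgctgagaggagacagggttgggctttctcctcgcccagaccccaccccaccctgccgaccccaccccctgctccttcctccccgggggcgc
LAMB1: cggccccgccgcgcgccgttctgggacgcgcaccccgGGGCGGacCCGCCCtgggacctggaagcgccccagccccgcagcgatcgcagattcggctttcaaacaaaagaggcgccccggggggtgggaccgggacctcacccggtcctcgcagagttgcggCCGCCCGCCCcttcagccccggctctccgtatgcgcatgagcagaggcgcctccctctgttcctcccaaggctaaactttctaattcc
Both are rich in G and C, at 79.6% in LAMC1 and 70.4% in LAMB1, against a median of 58.0% over all promoter windows of this length. A GC box was found 3 times in LAMC1 and 4 times in LAMB1, and 42.6% of 35116 windows hold at least 1. In LAMA5 it was found 5 times, in a window of 82.8% G and C. The TATA box TATAAA, held by 10.7% of windows, and the AP-1 letters TGANTCA, held by 6.57%, were in none of these 3 windows on either strand. A match of letters is a description of the sequence. It does not separate LAMC1 from LAMB1, since both windows hold GC boxes. RefSeq promoter entries were given for 8 of the 9 laminin genes, LAMA1 being the one without.

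Genes near a laminin gene on its chromosome also differed between the arrays, and their medians are given beside the chains. The 50 kept genes nearest to LAMC1 on chromosome 1 had a median difference of 0.13, and 5 of them were above LAMC1. With that median subtracted LAMC1 was at 0.52, under the 1.5-fold rule of 0.58. The 50 genes around LAMB1 on chromosome 7 had a median of -0.23, and 40 of them were below 0. LAMB1 was 0.22 above that median, so its difference of -0.01 changed sign when the region's median was subtracted. LAMA5 lies on chromosome 20, where 352 genes had a median of 0.26 and the 50 nearest genes 0.14. LAMA5 was at 0.09 with the chromosome's median subtracted and at 0.21 with that of its neighbours. LAMA1 on chromosome 18 lay on the other side of 0 from its neighbours' median of 0.11, with 46 of 50 neighbours above it, and was at -0.43 after subtraction. The part of these regional shifts in the laminin values was not tested.

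**Figure D3:**
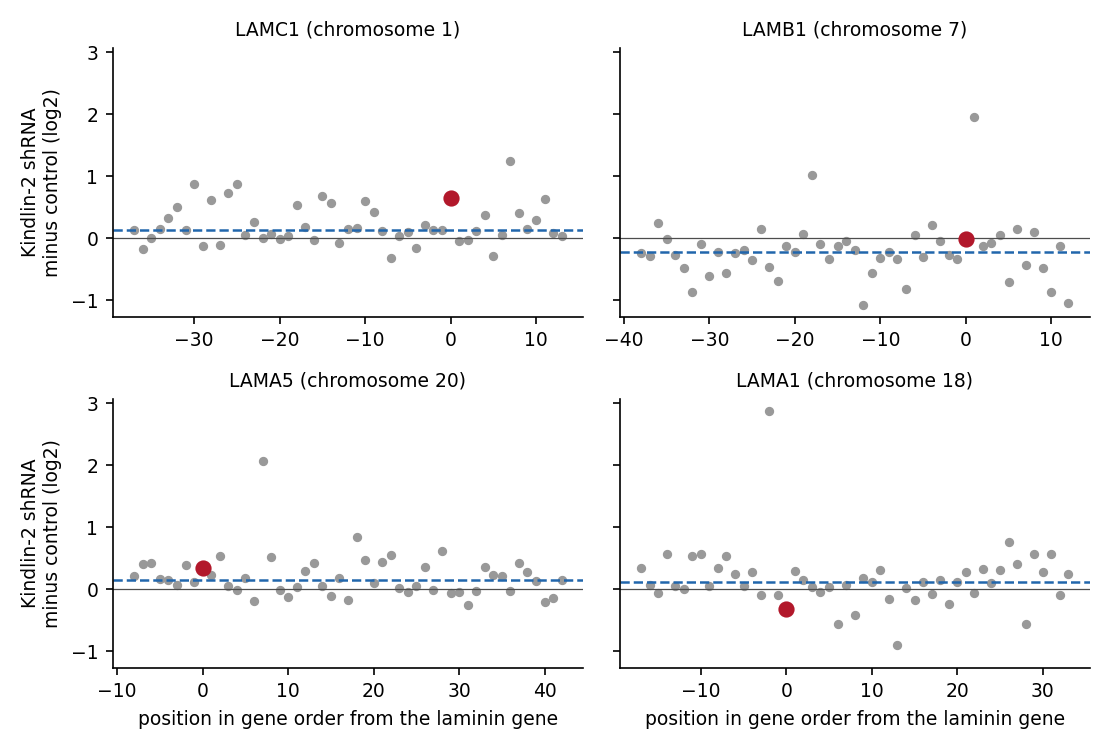
Difference between the arrays (vertical axes, Kindlin-2 shRNA minus control, log2) of LAMC1, LAMB1, LAMA5 and LAMA1 (large points) and of the 50 kept genes nearest to each (small points), in gene order along the chromosome (horizontal axes), with the neighbours' median dashed. The medians are 0.13, -0.23, 0.14 and 0.11, and LAMB1 at -0.01 lies above its neighbours' median while LAMA1 at -0.32 lies below it.

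Receptors of laminin covered a wider range of differences than the chains, from -1.76 to 1.29 against -0.32 to 0.65. Of 15 listed receptors and their partners 11 had a cluster and 10 were kept, and 2 of these passed the rule upward and 2 downward, with a median of 0.08. Over all genes kept the shares were 5.10% upward and 5.23% downward. Of these 4 receptors, 3 are integrin subunits. ITGA6, the alpha-6 integrin subunit that binds laminins with either beta-1 or beta-4, was 9.287 in the Kindlin-2 shRNA array and 7.995 in the control array. ITGA3, the alpha-3 subunit that binds laminin-511 and laminin-332, was 12.29 and 11.29 in the same order, 2.003-fold higher. ITGB1, the beta-1 subunit that pairs with both, was 11.20 and 10.74, 1.37-fold higher and short of the rule. In the other direction ITGB4, the partner of alpha-6 in hemidesmosomes, was 8.55 in the Kindlin-2 shRNA array and 10.25 in the control array. BCAM, an immunoglobulin-like receptor for the alpha-5 chain, was 7.47 and 9.23, 3.38-fold lower. The alpha-6 subunit and its beta-4 partner therefore stood on opposite sides of 0, at 1.29 and -1.70. ITGA7, a laminin receptor of muscle, had the same deposited value of 6.57 on both arrays. CD151, a tetraspanin that associates with laminin-binding integrins, differed by -0.27. DAG1, which encodes dystroglycan, was not analysed here.

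Proteins that tie laminin into the basement membrane included 1 gene past the rule in each direction, of 15 kept, near the 10.3% of all genes kept. Of 27 listed genes 26 had a cluster, and the median of those kept was 0.06. NID1 and NID2 encode the nidogens, which link the gamma-1 chain to collagen IV. NID1 was 9.86 in the Kindlin-2 shRNA array and 9.34 in the control array, 1.43-fold higher and short of the rule. NID2 was 7.71 and 8.80, 2.13-fold lower, so the 2 nidogen genes differed in opposite directions. The collagen IV genes COL4A1 and COL4A2 differed by -0.29 and 0.06, the perlecan gene HSPG2 by -0.02 and the agrin gene AGRN by 0.28. TINAG, a tubule basement membrane antigen, was 6.96 in the Kindlin-2 shRNA array and 6.38 in the control array, 1.504-fold higher with its control value under the filter floor. It did not pass after repeated quantile normalization or when both values had to reach the floor. None of COL4A3, COL4A4, COL4A5 and COL4A6 passed the filter.

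Among relatives of the laminin chains, NTN4 stood apart from the others. NTN4 encodes netrin-4, a secreted protein with a laminin-type arm that binds the gamma-1 chain and interferes with laminin polymers. It was 7.99 in the Kindlin-2 shRNA array and 9.62 in the control array, 3.09-fold lower. The other 6 kept relatives, LAMC3 and netrin genes, lay between -0.14 and 0.12. Of the 10 listed, 8 had a cluster and 7 were kept, and the median was -0.03.

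Proteases that can cleave laminin were higher in 3 cases and lower in 1, of 11 kept among 17 listed, beside 5.10% higher and 5.23% lower of all genes kept, and their median was 0.08. PLAU, the urokinase activator of plasminogen, was 11.83 in the Kindlin-2 shRNA array and 10.34 in the control array. PLAT, the tissue-type activator, was 9.29 and 8.41, 1.84-fold higher, and the lysosomal protease CTSB was 10.96 and 10.17, 1.74-fold higher. MMP7 was 5.94 in the Kindlin-2 shRNA array, under the filter floor, and 7.53 in the control array. BMP1, which trims laminin chains outside the cell, differed by -0.36, and the membrane protease MMP14 by 0.29. PLG, which encodes plasminogen itself, did not pass the filter, with 5.14 and 5.23.

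Counts in the remaining lists were small and are not a result about them, since 10.3% of all genes kept passed the rule. Of 14 enzymes kept that build the laminin-binding sugar of dystroglycan, only DPM1, a mannose donor synthase subunit, passed the rule, at 9.23 in the Kindlin-2 shRNA array and 8.36 in the control array. DPM1 lies on chromosome 20, and with its neighbours' median subtracted it was at 0.54, under the rule. Of 16 kept linkers between laminin receptors and the cytoskeleton none passed the rule and the median was -0.12. Of these 16, 11 were below 0, beside 53.2% of all genes kept. KRT18, among the 11, had 2 clusters, and whether the brighter one used here reports this gene was not tested. The neighbours' median was also below 0 around most of the 11, down to -0.34 around TLN1. It was above 0 around SGCB, PARVA and FERMT1. FERMT1, which encodes the epithelial kindlin-1, was 6.03 in the Kindlin-2 shRNA array and 6.62 in the control array, at -0.58 just short of the rule. FERMT1 was kept only through its control value, since 6.03 lies under the filter floor of 6.52. It passed downward after loess (-0.60), after repeated quantile normalization (-0.62) and with the chromosome's (-0.85) or the neighbours' median subtracted (-0.84). KRT8 passed downward only after repeated quantile normalization (-0.59). The plakin genes PLEC and DST, which join hemidesmosomes to keratin, differed by -0.04 and -0.15. Over all these lists 12 of 73 kept genes differed by at least 1.5-fold, 7 higher and 5 lower, which is 16.4% beside 10.3% of all genes kept. The lists were chosen with earlier results of these data known, so the 2 shares cannot show an excess. TINAG and MMP7, among the 12, were kept only through their brighter array. The balance of directions was not stable, with 6 higher and 7 lower after repeated quantile normalization.

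**Figure D4:**
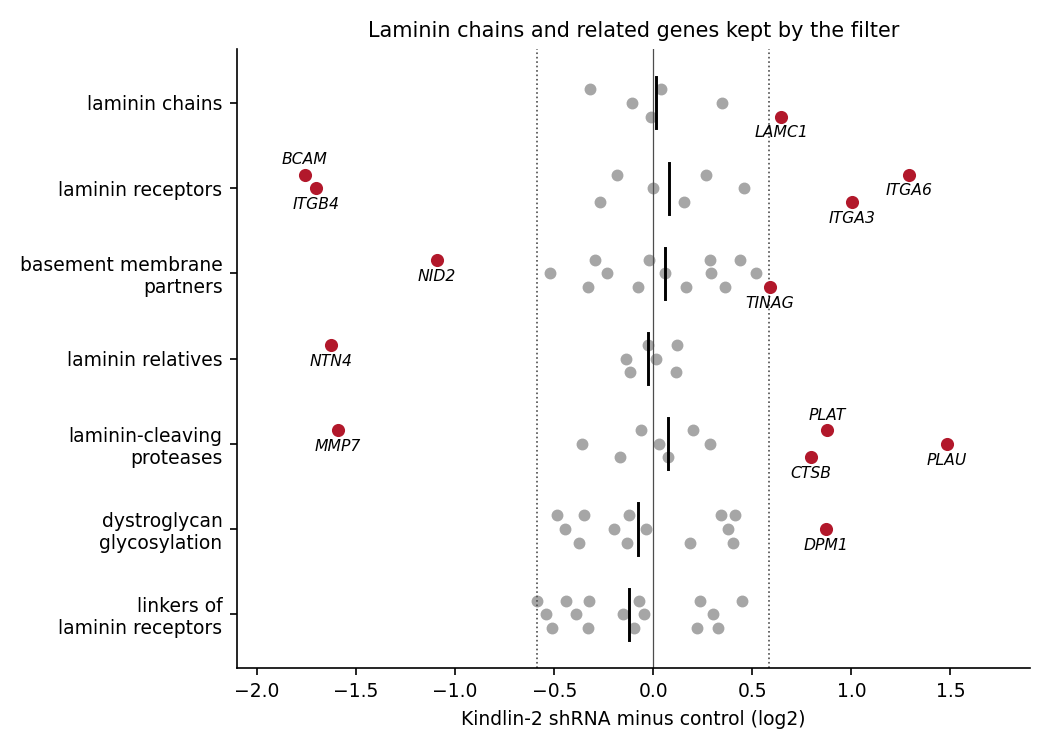
Difference between the arrays (horizontal axis, Kindlin-2 shRNA minus control, log2) of every kept laminin chain and related gene, 1 row per list; named dark points differ by at least 1.5-fold (dotted lines) and black bars are medians. Medians of the 7 lists lie between -0.12 and 0.08, while ITGA6 at 1.29, PLAU at 1.48, ITGB4 at -1.70 and BCAM at -1.76 mark the outer values.

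Markers of the cell type were set beside these values. All 10 measured kidney epithelial markers were kept, with PAX8 at 11.29 in the Kindlin-2 shRNA array and 11.43 in the control array. Of the 10, 8 were below 0, beside 53.2% of all genes kept. CDH1 at -1.96, CDH16 at -0.83 and PAX2 at -0.66 passed the rule downward. The 2 above 0 were CDH6 at 0.91, past the rule upward, and EPCAM at 0.25. Over all genes kept the shares past the rule were 5.10% upward and 5.23% downward. EPCAM and KRT18 each had 2 clusters, and the brighter stood for the gene. The numbers of the clusters used lie among those of genes on chromosome 4 for EPCAM and chromosome 9 for KRT18. Whether these clusters report the named genes was not tested. Of the clear cell carcinoma markers CA9 and NDUFA4L2 were not analysed here, EGLN3 did not pass the filter, and ANGPTL4 and VIM were kept. ANGPTL4 differed by 0.82, past the rule upward, and VIM by 0.2. The papillary renal carcinoma markers MET and KRT7 were kept too. MET was 11.36 in the Kindlin-2 shRNA array and 11.61 in the control array, and KRT7 was 7.33 and 7.35. None of 4 leukocyte markers and 1 of 7 endothelial markers, CLDN5, passed the filter, whereas 5 of 7 fibroblast and pericyte markers did, with a median of -0.02. Of the Schwann and muscle markers measured, SOX10, DES and MYOG also passed and S100B did not. Passing the filter was therefore not read as expression of a gene. PDGFRB was at -0.77 and ACTA2 at -0.76, while COL1A1, COL1A2 and COL3A1 lay between -0.02 and 0.17. PDGFRB passed only through the control array, at 7.08 against 6.31 in the Kindlin-2 shRNA array. COL1A2 and COL3A1 lay at the filter floor of 6.52 on both arrays. In RNA from a whole culture, fewer cells of a type and less RNA per cell cannot be told apart.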

How the data were processed

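Per the submitters' processing notes, the authors used RMA and Affymetrix Expression Console 1.4.1. The deposited values, 33297 transcript clusters per array, were taken as log2 from their range of 2.13 to 14.04. Not given in the sources used here are the genome build of the array annotation and the arrays normalized together. RMA narrows differences between dim values, and the number of arrays limits the precision.

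Gene symbols, from GEO's annotation of the platform, were updated by Entrez ID to RefSeq (GRCh38.p14), with 19429 of 19460 single-symbol clusters matched. Left out were 1754 clusters with several symbols and 12083 with none. The brightest cluster stood for a gene. Neighbours were the 50 kept genes nearest by start on the same chromosome, used for order only. Loess correction used statsmodels 0.14.6 with a span of 0.3. The counting was tested on simulated data.

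The text names all laminin chains, FERMT2, list members past 1.5-fold, 15 further genes fixed by name and some genes chosen after their values were seen. Members and lists were chosen with earlier results of these data known.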

Additional observations from a re-analysis of the deposited data

How the results depend on the processing

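No paired analysis was possible because each group held 1 array. LAMC1 stayed at least 1.5-fold higher with dim genes kept, with both values required to reach the floor, after loess, median or repeated quantile correction, with clusters averaged and with the autosome's median subtracted. The count of chains at least 1.5-fold higher was 0 at a 2-fold rule and 0 with the median of 50 neighbours subtracted. LAMC1 ranged from 0.52 to 0.66 and LAMA1 from -0.43 to -0.29. LAMB1 ranged from -0.04 to 0.22 and LAMB3 from -0.13 to 0.05, so their signs changed when the neighbours' median was subtracted. LAMB1 was also above 0 with the autosome's median subtracted (0.21) and, at 0.0009, with the median of all clusters subtracted. LAMA5 ranged from 0.09 to 0.37. The count of chains at least 1.5-fold lower was 0 under all 9 alternatives. Over the related lists, the count at least 1.5-fold higher was 7, and 3 at a 2-fold rule, and between 6 and 7 otherwise. The count at least 1.5-fold lower was 5, and between 4, with both values required to reach the floor, and 7, after repeated quantile normalization. TINAG was under 1.5-fold after repeated quantile normalization.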

Other observations

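Some of the 50 kept genes nearest to a laminin gene differed by over 2-fold in either direction, beside 2.67% of all genes kept. Those below were named after their values were seen and are not a result about these regions. EPB41L3, a protein 4.1 family membrane skeleton gene, is the second kept gene from LAMA1 on chromosome 18 and differed by 2.87, while LAMA1 differed by -0.32. NRCAM, a neuronal cell adhesion molecule, is the kept gene next to LAMB1 on chromosome 7 and differed by 1.95, against a neighbour median of -0.23. RELN, which encodes the secreted glycoprotein reelin, lies in the same stretch and differed by 1.02. SLCO4A1, an organic anion transporter, lies 7 kept genes from LAMA5 on chromosome 20 and differed by 2.07. IVNS1ABP lies 7 kept genes from LAMC1 on chromosome 1 and differed by 1.25. DTL near LAMB3 on the same chromosome differed by 1.28, and TNFAIP3 near LAMA2 on chromosome 6 by 1.18. In the other direction, PPIL6 and CRYBG1 near LAMA4 on chromosome 6 differed by -1.47 and -1.34, and EFCAB10 and FOXP2 in the LAMB1 stretch by -1.07 and -1.05. These are single values without a replicate.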
